A study of Mus musculus with 4 samples.

Results

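The 49 genes described here encode the machinery of DNA replication and its S phase regulators, out of the 32285 genes counted in each library. They were chosen by name, with no threshold on a measured value but with earlier results of these data known, and all 49 were found under their symbols. The cells had been captured in 10x Genomics droplets, and their RNA sequenced, from the medial ganglionic eminence (MGE), the ventral forebrain zone that produces cortical interneurons and neurons of the globus pallidus, of mouse embryos at E14.5. Of the 4 libraries, 2 were labelled St18 (-/-), called null here, and 2 were labelled WT. St18, a zinc finger transcription factor, was lost from the whole animal in the null embryos, which came from a conditional allele recombined in the germline. The strain was a C57/BL6 and ICR mix, embryos of both groups had heterozygous parents, and each library pooled the MGE of embryos of its genotype. How many embryos and of which sex went into a pool was not given. The study describes the libraries of a group as biological replicates. For null against WT within a class, the p-values measure the spread between such pools. Where classes or ranges of the same library are compared, they measure how far that difference varied from pool to pool. Values of the 4 libraries are given in the order null 1, null 2, WT 1 and WT 2, with numbers that follow the order of deposition.

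The libraries held 70991150 to 92984713 unique molecular identifiers (UMIs), each standing for 1 captured RNA molecule. Barcodes with at least 3000 UMIs and at most 10% mitochondrial UMIs were taken as cells, which gave 6631, 3878, 4512 and 4011 cells with a median of 6186 to 9352 UMIs. The recombined St18 allele lacks internal exons only and leaves a transcript with an early stop codon, which decay may lower, so UMIs over the whole gene check the labels only in part. In neurons St18 stood at 23.8 and 77.5 CPM (UMIs per 1000000 UMIs of the class) in the libraries labelled null and at 40.4 and 55.4 CPM in those labelled WT, with null 2 above both WT libraries. The paper reports significantly lower St18 transcript in null than in WT neurons, for the groups as a whole, and no St18 protein signal in null embryos. Whether the label of null 2 is right could not be checked from these counts. Null and WT refer to the labels throughout. The spread between replicates was larger among the null libraries, with a chi-square per degree of freedom over genes of 31.5 against 2.23 in progenitors. At least 3 UMIs of Xist, which marks female cells, were found in 36.0% and 67.1% of the cells of the null libraries and in no cell of the WT libraries. Sex thus differed between the labelled groups, and male cells alone were used in an alternative. Any pair of libraries shared few barcodes, 41 in all.

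Cells were clustered without the 49 genes and without 19 further S phase genes, called companion genes here, and the clusters were named from fixed marker genes. The 7242 cells called progenitors were 1662 radial glia-like cells, named from markers such as Hes5 and Fabp7, and 5580 basal progenitor-like cells, named from markers such as Dll1. Neurons, named from markers such as Tubb3 and Gad1, numbered 10010. Clusters with a mean score above 0.5 on 20 mitotic genes were barred from the neuron class, so division entered how the classes were drawn. Neuron clusters 1, 15, 17 and 18 held raised markers of another region (lateral or caudal ganglionic eminence, or pallium) and were kept. The MGE marker Nkx2-1 stood at 421 to 467 CPM in progenitors and 272 to 298 CPM in neurons. Basal clusters 2, 19, 21 and 23 held only 1 or 2 basal markers at a raised level and were led by cell cycle genes. Their names thus rest on the mean marker score, and they held most of the basal progenitor-like cells in every library.

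Replication runs in ordered steps. The origin recognition complex, Cdc6 and Cdt1 load the Mcm2-7 helicase onto origins in G1, which is called licensing, and geminin (Gmnn) blocks reloading by binding Cdt1. Cdc45 and the GINS complex join Mcm2-7 to form the active helicase, Pcna is the sliding clamp loaded by the Rfc complex, and DNA polymerases alpha, delta and epsilon copy the strands. Many of these genes are targets of E2F transcription factors, which are released from retinoblastoma proteins as a cell commits to S phase. In the embryonic MGE, radial glia divide at the ventricle and basal progenitors in the subventricular zone, whereas neurons have left the cell cycle.

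The members lay on 15 chromosomes, and all were annotated as protein-coding. Promoter sequences are shown because many of the members held a short E2F word near their start. Windows from 250 bases before to 50 bases after a RefSeq transcription start (GRCm38.p6) were found for 41 of the 49 members. The others were Gins1, Gins2, Gins4, Gmnn, Mcm4, Pole, Prim2 and Rfc2. An E2F word was any of TTTCGCGC, TTTGGCGC, TTTCCCGC or TTTGCCGC, read on both strands. It stood in the windows of 18 of 41 members (43.9%) against 704 of the 27025 genes with a window (2.60%). The 18 were Cdc6, Cdt1, Dtl, E2f2, Gins3, Hells, Lig1, Mcm3, Mcm5, Mcm6, Mcm7, Orc1, Pola1, Pold1, Pold3, Pole2, Rfc3 and Uhrf1, of which 7 were licensing genes. The CCAAT word, searched separately on both strands with overlaps allowed, stood in 25 members (61.0%) against 41.1% of genes, and the word TTTGAA, the core of the cell cycle genes homology region, in 6 members (14.6%) against 20.2% of genes. A match is a description of the letters and not a binding site.

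The 4 members with the largest difference between progenitors and neurons among those with an E2F word are printed with the word in capitals, beside Orc6, the member with the smallest difference, whose window held none. Tk1, the member with the largest difference of all, held none either. Each runs 5′ to 3′ on the strand of the gene, and base 1 is the RefSeq start. Dtl, the substrate adaptor of a ubiquitin ligase that degrades Cdt1 in S phase, lies on the minus strand of chromosome 1 with its window at chr1:191575495-191575794, and its word began 8 bases before the start. Cdc6, the loader of the Mcm2-7 helicase, lies on the plus strand of chromosome 11 (chr11:98907901-98908200), with the word at base -138 in reverse. E2f2, an activator of the E2F family, lies on the plus strand of chromosome 4 (chr4:136172024-136172323), with the word at base 40. Mcm3, a helicase subunit, lies on the minus strand of chromosome 1 (chr1:20820263-20820562), with words at bases 20 and 39. Orc6, a subunit of the origin recognition complex, lies on the plus strand of chromosome 8 (chr8:85299382-85299681).
Dtl: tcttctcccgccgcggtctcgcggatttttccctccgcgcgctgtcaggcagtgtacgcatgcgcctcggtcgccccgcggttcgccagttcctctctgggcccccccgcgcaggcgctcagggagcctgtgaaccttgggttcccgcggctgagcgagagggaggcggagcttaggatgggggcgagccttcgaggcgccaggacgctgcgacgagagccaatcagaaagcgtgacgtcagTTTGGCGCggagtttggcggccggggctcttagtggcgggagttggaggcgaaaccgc
Cdc6: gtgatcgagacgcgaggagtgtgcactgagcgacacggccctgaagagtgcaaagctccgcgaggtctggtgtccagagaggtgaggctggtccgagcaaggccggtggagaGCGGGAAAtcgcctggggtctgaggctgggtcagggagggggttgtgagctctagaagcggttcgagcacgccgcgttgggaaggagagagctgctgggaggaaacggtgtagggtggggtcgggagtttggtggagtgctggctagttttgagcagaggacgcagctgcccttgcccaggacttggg
E2f2: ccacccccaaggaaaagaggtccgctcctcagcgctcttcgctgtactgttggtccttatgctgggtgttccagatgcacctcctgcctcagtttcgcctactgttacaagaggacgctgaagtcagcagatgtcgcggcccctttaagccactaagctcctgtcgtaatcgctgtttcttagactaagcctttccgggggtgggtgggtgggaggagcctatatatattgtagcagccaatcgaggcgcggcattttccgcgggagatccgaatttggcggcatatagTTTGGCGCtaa
Mcm3: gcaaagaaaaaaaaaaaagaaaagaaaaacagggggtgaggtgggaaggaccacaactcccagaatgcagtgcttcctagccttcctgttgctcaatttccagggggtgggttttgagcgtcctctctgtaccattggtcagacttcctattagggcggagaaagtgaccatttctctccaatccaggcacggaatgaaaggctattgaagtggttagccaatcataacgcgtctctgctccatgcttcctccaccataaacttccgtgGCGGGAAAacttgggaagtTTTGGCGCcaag
Orc6: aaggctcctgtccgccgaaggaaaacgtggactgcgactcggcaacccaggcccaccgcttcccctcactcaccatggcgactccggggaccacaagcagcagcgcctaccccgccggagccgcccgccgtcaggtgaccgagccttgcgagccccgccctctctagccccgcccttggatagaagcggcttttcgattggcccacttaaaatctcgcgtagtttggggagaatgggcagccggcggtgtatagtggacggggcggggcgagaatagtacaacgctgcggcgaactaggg

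Every member was higher in progenitors than in neurons. The classes had been drawn in part by mitotic genes. Of 13693 genes tested in the edgeR quasi-likelihood fit on counts summed per library and class, 80.6% were called at an adjusted p of 0.05, 39.6% higher in progenitors and 41.0% lower. All 49 members were among the higher ones, with a median log2 fold change of 2.60, against -0.02 over all genes tested, and a largest adjusted p of 3.03e-13 (Orc1). In each of the 49, the lowest progenitor library lay above the highest neuron library, for which no share over all genes is given here. The ratio of mean CPM between progenitors and neurons ran from 1.96 (Orc6) to 16.2 (Tk1), with a median of 5.95. Single cells release RNA into the droplets, and this free RNA was measured in barcodes with under 100 UMIs. In progenitors all 49 members stood above the free RNA level of their own library. In neurons, 0, 1, 0 and 1 members did so in the 4 libraries, and the mean neuron level was 0.102 to 0.853 of the free RNA level. The part of free RNA in the neuron levels was not tested.

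**Figure D1:**
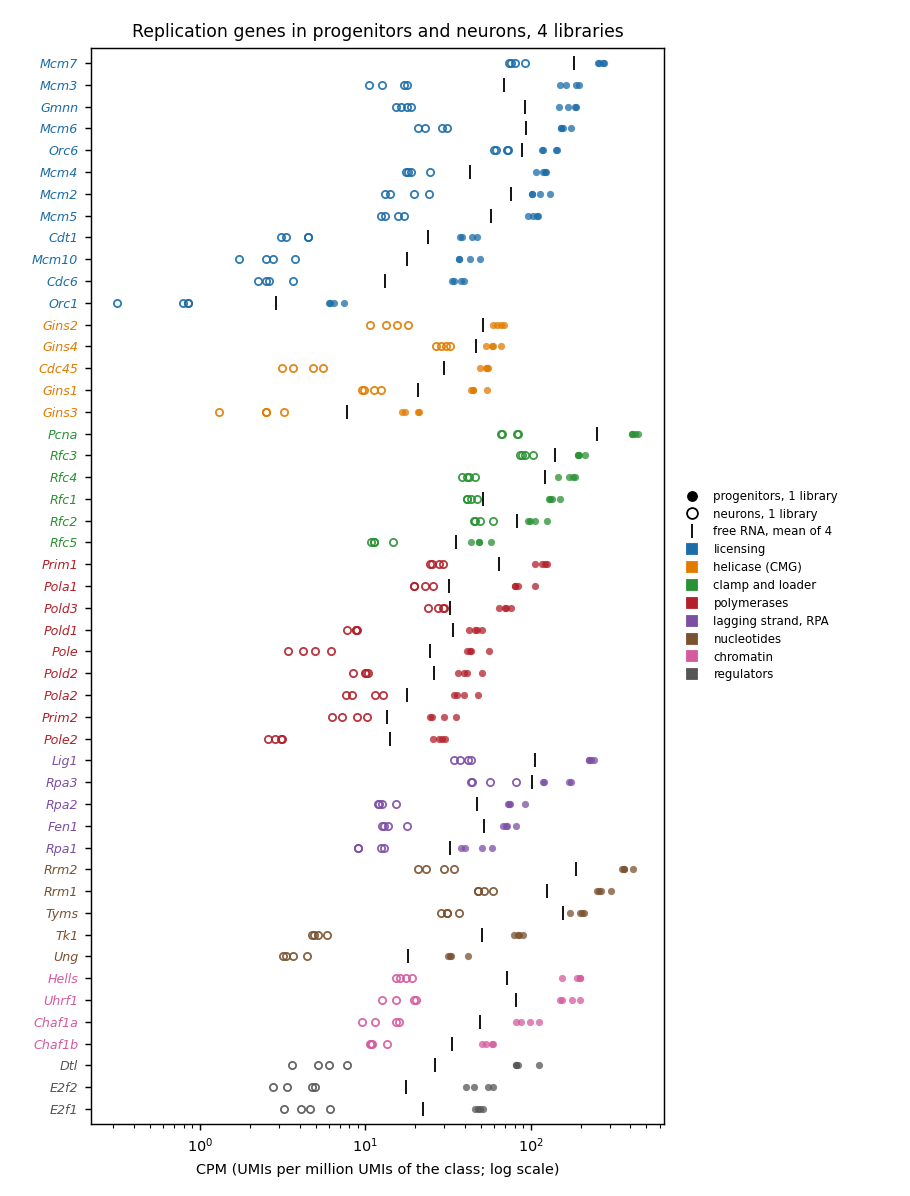
CPM of each of the 49 genes (log scale) in progenitors (filled circles, 1 per library) and neurons (open circles, 1 per library), with the mean level in free RNA of the 4 libraries as a bar, coloured by role. The filled circles of each gene lie to the right of its open circles, from Orc6 with a ratio of 1.96 to Tk1 with a ratio of 16.2.

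The licensing genes covered a wide range, with a median log2 fold change of 3.04 over 12 members. Mcm10 was grouped with them, although it helps to start unwinding at the origin and is not among the loading factors named above. It stood at 42.9, 48.96, 36.6 and 37.0 CPM in progenitors and at 3.77, 2.77, 1.73 and 2.52 CPM in neurons, a log2 fold change of 3.95 ± 0.0952 (SE, here and after every log2 fold change). Cdc6 stood at 37.9, 39.5, 34.2 and 33.2 CPM in progenitors and 3.63, 2.50, 2.23 and 2.60 CPM in neurons (3.75 ± 0.0905). No library of one class overlapped the other for either gene. Orc6 differed least of all members, at 119, 117, 142 and 144 CPM in progenitors and 61.6, 59.7, 72.98 and 71.3 CPM in neurons (1.02 ± 0.0390). It was the only licensing gene besides Mcm7 (1.77 ± 0.0492) with a log2 fold change under 2. Orc1, the largest subunit of the origin recognition complex, had the thinnest counts, at 6.42, 7.46, 6.05 and 6.12 CPM in progenitors and with as few as 4 UMIs over the neurons of a library (3.20 ± 0.183). The other 5 helicase subunits, Mcm2 to Mcm6, lay between 2.60 (Mcm4) and 3.62 (Mcm3). Counts of Mcm7 are uncertain to the extent that the microRNA genes Mir25 and Mir93 overlap its exons on the same strand. The same holds for Rpa1 with Gm47300 and for Pole2 with Gm49384.

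The genes of the active helicase split within 1 complex. Cdc45 stood at 54.2, 49.4, 53.4 and 54.9 CPM in progenitors and 5.51, 4.79, 3.67 and 3.15 CPM in neurons (3.62 ± 0.0912). Among the GINS subunits, Gins3 differed by 3.01 ± 0.115, Gins2 by 2.18 ± 0.0788 and Gins1 by 2.17 ± 0.0630. Gins4 differed least, at 65.9, 53.9, 58.6 and 58.5 CPM in progenitors and 32.6, 28.8, 30.7 and 26.8 CPM in neurons (1.04 ± 0.0513).

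Pcna stood at 446, 429, 409.8 and 409.6 CPM in progenitors and at 83.7, 82.2, 66.7 and 66.1 CPM in neurons (2.56 ± 0.0502). The annotation lists 2 pseudogenes under its name, so that some of its reads may be shared. Of the 5 clamp loader subunits, Rfc5 (2.10 ± 0.0570) and Rfc4 (2.07 ± 0.0447) differed most. Rfc2 stood at 126, 95.8, 106 and 99.3 CPM in progenitors and 58.9, 49.2, 46.1 and 45.3 CPM in neurons (1.15 ± 0.0481), and Rfc3 was nearly as close (1.16 ± 0.0403). The clamp and loader genes had the lowest median of the 8 roles, 1.89.

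Among the polymerase genes, the catalytic subunit of polymerase epsilon, Pole, stood at 43.2, 56.0, 42.8 and 41.3 CPM in progenitors and 4.95, 6.23, 4.17 and 3.39 CPM in neurons (3.31 ± 0.0774), and its partner Pole2 differed by 3.30 ± 0.0940. The 3 polymerase delta genes spread from 1.39 to 2.47. Pold3, an accessory subunit, was lowest of the group, at 71.0, 76.1, 64.5 and 69.3 CPM in progenitors and 29.6, 29.8, 23.9 and 27.5 CPM in neurons. The polymerase alpha and primase genes were close together, between 1.86 (Prim2) and 2.17 (Prim1).

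On the lagging strand, Lig1, the ligase that joins Okazaki fragments, stood at 226, 224, 241 and 231 CPM in progenitors and 41.6, 43.5, 34.4 and 37.1 CPM in neurons (2.60 ± 0.0593), and the flap nuclease Fen1 differed by 2.40 ± 0.0553. The 3 subunits of RPA, which coats single-stranded DNA, did not move equally. Rpa2 differed by 2.64 ± 0.0530 and Rpa1 by 2.15 ± 0.0580, whereas Rpa3 differed by 1.45 ± 0.0530. Rpa3 also varied most between the 4 libraries in progenitors, with a coefficient of variation of 21.0% against a median of 10.2% over the members.

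The nucleotide genes held the largest difference of all. Thymidine kinase 1 (Tk1), which salvages thymidine, stood at 85.05, 78.5, 89.2 and 83.1 CPM in progenitors and 5.89, 5.17, 4.89 and 4.73 CPM in neurons (4.05 ± 0.0659). The 2 subunits of ribonucleotide reductase, which makes deoxyribonucleotides, differed from each other. The small subunit Rrm2 stood at 413, 365, 363 and 354 CPM in progenitors and 34.2, 29.7, 20.7 and 23.2 CPM in neurons (3.84 ± 0.0668), and the large subunit Rrm1 at 251, 306, 258 and 265 CPM in progenitors and 52.3, 59.0, 47.9 and 47.9 CPM in neurons (2.43 ± 0.0438). Thymidylate synthase (Tyms), which has 1 pseudogene by name, differed by 2.67 ± 0.0460, and Ung, which removes uracil from DNA, by 3.29 ± 0.0790.

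The chromatin factors and regulators were among the higher medians, 3.13 and 3.68. Hells, a chromatin remodeller of the DNA methylation machinery, stood at 155, 197, 189 and 197 CPM in progenitors and 17.5, 19.1, 16.1 and 15.3 CPM in neurons (3.46 ± 0.0623). Chaf1b, a histone chaperone subunit, differed least of the 4 chromatin genes (2.31 ± 0.0626). Dtl stood at 83.4, 112, 81.0 and 81.0 CPM in progenitors and 5.98, 7.78, 3.595 and 5.20 CPM in neurons (4.01 ± 0.0739), E2f2 differed by 3.68 ± 0.0747 and E2f1 by 3.44 ± 0.0882. Over all roles, the 18 members with an E2F word had a median log2 fold change of 3.11 and the 23 with a window but no word had 2.43, which is a description. The 2 sets overlapped widely, from 1.16 to 4.01 with a word and from 1.02 to 4.05 without.

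Of 57 further replication and E2F pathway genes, 51 rose in progenitors against neurons and 2 fell, with a median of 1.79. The checkpoint mediator Clspn (4.13), the S phase cyclin Ccna2 (4.11) and the repressor E2f8 (4.09) rose most. The 2 that fell were Pold4 (-1.41), a small subunit of polymerase delta, and Rrm2b (-0.49), the ribonucleotide reductase subunit used outside S phase.

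The members also separated the classes cell by cell. Each cell was thinned at random to 3000 UMIs so that depth was equal. The median thinned progenitor then held 13 member UMIs in each of the 4 libraries, and the median neuron held 3. At least 10 member UMIs were found in 62.3%, 61.5%, 61.8% and 61.5% of progenitors and in 2.43%, 3.19%, 1.25% and 1.55% of neurons. Without thinning, the neuron shares were 19.4%, 37.2%, 9.29% and 9.91%, at median depths of 5491 to 8209 UMIs against 8036 to 12702.5 UMIs in progenitors. Erythroid cells, which should lack replication, held a median of 0 member UMIs at the same depth. No member UMI was found in 51.1% to 75.7% of them, against 5.72% to 6.5% of neurons. At least 10 were found in 4.26%, 0%, 0% and 6.82% of erythroid cells, on 37 to 47 cells per library. The exact 95% upper bounds were 8.81% to 18.7%, so a neuron share of this size cannot be told apart from background. Erythroid cells were also deeper before thinning, at medians of 9970 to 12894 UMIs. All intervals cover counting error only.

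**Figure D2:**
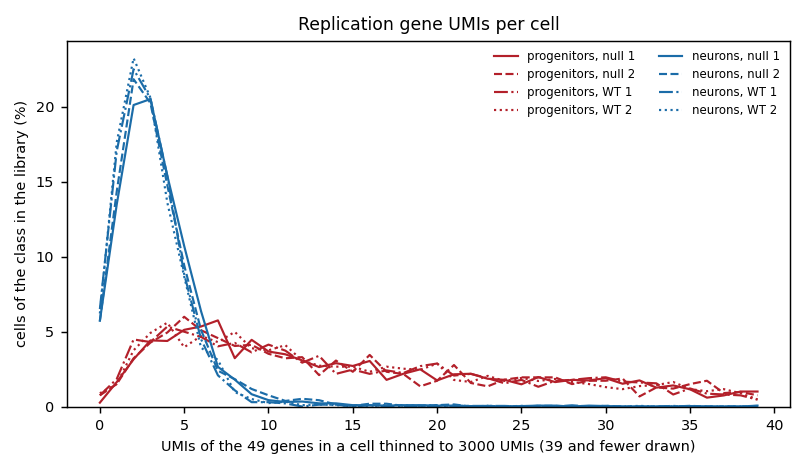
Share of cells (percent of the class in a library) against the number of UMIs of the 49 genes in a cell thinned to 3000 UMIs, for progenitors and neurons of the 4 libraries. Neurons peak near their median of 3 UMIs and progenitors spread widely around a median of 13, and progenitors with 40 or more UMIs (2.39% to 3.89%) are not drawn.

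Within the progenitors, the members were compared between the radial glia-like and basal progenitor-like classes. Radial glia-like and basal progenitor-like cells held summed levels of 5496 ± 269 and 5381 ± 77.1 CPM (SD, n = 4 libraries), while single genes differed in both directions. In the edgeR fit with the library as a block, 66.0% of 12498 genes tested were called between the classes, and 38 of the 49 members were, 19 higher in basal progenitor-like cells (32.5% of genes) and 19 lower (33.5% of genes). The counts in each direction are close to the background. E2f2 stood at 42.6, 40.0, 28.1 and 26.9 CPM in radial glia-like cells and 60.6, 66.8, 52.6 and 45.4 CPM in basal progenitor-like cells (0.77 ± 0.0714), and E2f1 moved the same way (0.61 ± 0.0684). The direction of E2f2 turned with clusters made from all variable genes. Rrm2 stood at 323, 289.9, 272 and 273 CPM in radial glia-like cells and 456, 394, 399 and 381 CPM in basal progenitor-like cells (0.57 ± 0.0353), and Rfc3, Rrm1 and Cdc45 were higher by 0.49, 0.42 and 0.42. In each of these 6, every basal library lay above the radial glia library of the same pool.

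Ung fell most from radial glia-like to basal progenitor-like cells, from 62.5, 50.4, 48.6 and 54.2 CPM to 31.4, 26.3, 26.3 and 24.3 CPM (-0.91 ± 0.0705), with no overlap between the classes. Gins2 fell from 97.5, 88.5, 87.5 and 82.1 CPM to 55.2, 52.4, 57.2 and 51.4 CPM (-0.65 ± 0.0571), again without overlap. Orc1 (-0.71 ± 0.143), Pold2 (-0.60 ± 0.0709) and Pole2 (-0.50 ± 0.0784) fell by more than 0.5. Of the 57 further pathway genes, 17 were higher (32.5% of genes), led by the E2F and Myc target Cdca7 (1.33), and 16 lower (33.5% of genes), led by E2f5 (-1.42). The fit without the library block called 19 members, 7 higher (22.0% of genes) and 12 lower (23.5% of genes). The split also rested on how the classes were drawn. With clusters made from all variable genes, the members included, 6 members were higher (32.8% of genes) and 37 lower (33.9% of genes). With clusters made without any cell cycle gene, 32 were higher (31.6% of genes) and 7 lower (33.1% of genes).

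The finer clusters differed in which members stood highest. In the 9 progenitor clusters, 24 members peaked in basal cluster 19 and 18 in basal cluster 20, with 3 each in radial glia clusters 5 and 13 and Orc1 in radial glia cluster 7. Both basal clusters held high summed member levels, 7981 ± 252 CPM in cluster 19 and 8190 ± 764 CPM in cluster 20 (SD, n = 4 libraries). They differed in the 20 mitotic genes, such as Mki67 and Top2a, which summed to 7057 CPM in cluster 19 and 1713 CPM in cluster 20. Genes of replication-dependent histones led cluster 19, whereas Gsx1, Btg2 and Gadd45g were among the leading genes of cluster 20. Since the cells of a library were clustered together, the cluster values are a description without a test. Mitotic and histone genes were not left out of the clustering, so clusters can differ by cell cycle phase by construction. Clusters 19 and 20, which held the peaks of most members, are compared below.

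**Figure D3:**
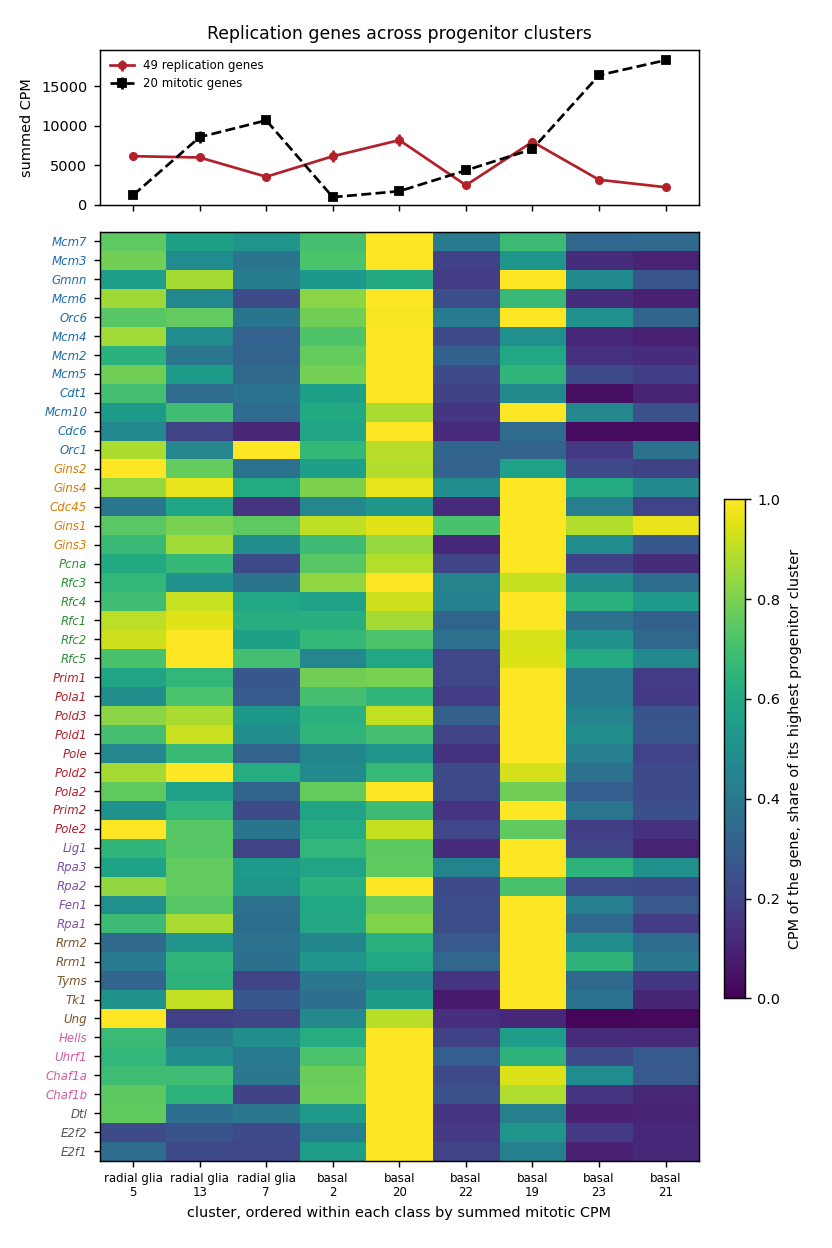
Level of each of the 49 genes (CPM as a share of the gene's highest progenitor cluster, mean of 4 libraries) in the 9 progenitor clusters, ordered within each class by mitotic level, under the summed CPM of the 49 genes and of 20 mitotic genes (mean and SD of 4 libraries). Licensing genes and regulators peak mostly in cluster 20, where mitotic genes sum to 1713 CPM, and nucleotide and polymerase genes mostly in cluster 19, where these sum to 7057 CPM.

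In cluster 20, all 4 libraries lay above all 4 of cluster 19 for 16 members, against 9.40% of the 12261 genes with a mean of at least 1 CPM. These 16 took in 9 of the 12 licensing genes and all 3 regulators. Ung stood at 109 CPM (range over libraries 89.9 to 126) in cluster 20 and at 13.8 CPM (11.1 to 16.5) in cluster 19, a ratio of 7.93. Cdc6 stood at 118 and 41.4 CPM, Dtl at 221 and 96.5 CPM, and E2f1 at 141 and 61.8 CPM in clusters 20 and 19.

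In cluster 19, all 4 libraries lay above all 4 of cluster 20 for 14 members, against 13.4% of genes. They took in 4 of the 5 nucleotide genes (Tyms, Tk1, Rrm1 and Rrm2), 5 polymerase genes, Cdc45, Gmnn, Lig1 and 2 clamp and loader genes. Tyms stood at 396 CPM (328 to 442) in cluster 19 and 187 CPM (164 to 217) in cluster 20. Rrm2 stood at 668 and 425 CPM, Tk1 at 153 and 84.6 CPM, and Gmnn at 278 and 169 CPM. The other 19 members overlapped. In clusters 23 and 21, where the mitotic genes summed to 16420 and 18323 CPM, the members fell to 3164 and 2220 CPM. The neuron clusters held 861 to 2271 CPM.

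Single progenitors were also sorted into ranges that used no member. The companion genes are S phase genes like the members, so member differences between the ranges follow in part from how these were drawn. A progenitor thinned to 3000 UMIs was put in the G2M range with at least 5 mitotic UMIs, and in the S range with fewer mitotic UMIs and at least 2 companion UMIs. These ranges are cuts of a score and not cell types, and 7.21% of progenitors lay at 4 or 5 mitotic UMIs. The cuts were too low to set cycling cells apart, since 59.9% to 64.2% of neurons also fell in the S range. Cuts of 25 mitotic and 8 companion UMIs, chosen after the data were seen, left 1.63% to 3.05% of neurons in the S range and none in the G2M range. They put 40.2%, 40.0%, 43.4% and 41.7% of progenitors in the S range and 37.8%, 40.0%, 31.9% and 33.9% in the G2M range. At these cuts 14.4% of progenitors lay between 20 and 29 mitotic UMIs.

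With the higher cuts, all 49 members fell from the S range to the G2M range in the edgeR fit, against 27.4% of the 11932 genes tested, with a median of -1.001 and with 55.2% of genes called in either direction. Ung stood at 83.8, 72.9, 63.4 and 60.2 CPM in the S range and at 5.0, 3.07, 3.39 and 2.42 CPM in the G2M range (-4.25 ± 0.0953). Cdc6 fell from 79.2, 83.6, 68.7 and 69.3 CPM to 9.40, 10.0, 8.89 and 6.25 CPM (-3.06 ± 0.0771). Pcna fell from 786, 755, 720.0 and 723 CPM to 214, 230.1, 175 and 178 CPM (-1.86 ± 0.0379). The ranges did not overlap for any of the 3. By role, the medians were -2.05 for regulators, -1.84 for licensing genes, -1.78 for chromatin factors and -1.17 for lagging strand and RPA genes. They were -0.95 for polymerase genes, -0.93 for helicase genes, -0.88 for clamp and loader genes and -0.81 for nucleotide genes. At the other end, Rrm2 stood at 573, 491, 499 and 493 CPM in the S range and 351, 331, 323 and 321 CPM in the G2M range (-0.60 ± 0.0301). Rrm1 stood at 299, 369, 312 and 344 CPM and 252, 304, 264 and 249.7 CPM in the same order (-0.26 ± 0.0335), and Gins1 fell by 0.16 on the log2 scale (adjusted p = 0.0135).

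With the lower cuts, the direction of some members turned. In that fit 29 members fell from the S to the G2M range (21.3% of the 12049 genes tested), 10 rose (21.0% of genes, 42.3% in either direction) and 10 did not pass the test, with a median of -0.32. The 10 that rose were Rrm1, Tyms, Rrm2, Pole, Rfc5, Tk1, Rpa3, Gmnn, Cdc45 and Rfc4. Ung fell most under both cuts, by 2.11 on the log2 scale here.

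**Figure D4:**
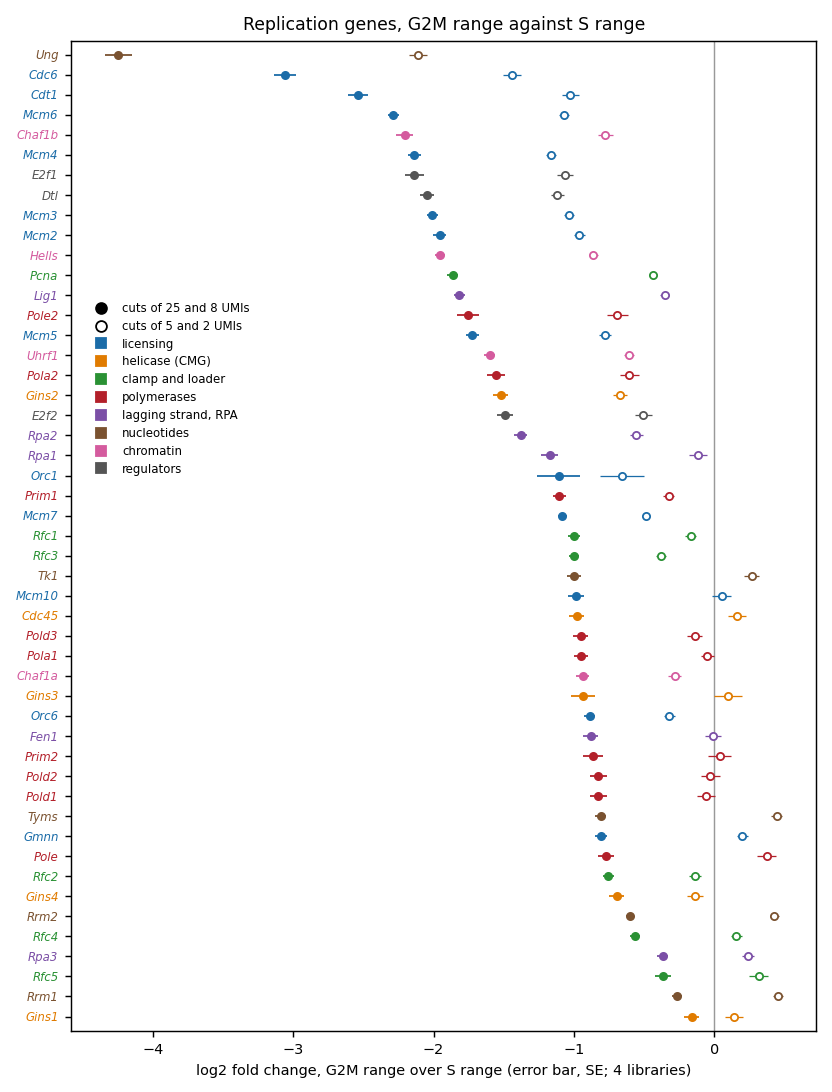
Log2 fold change of each of the 49 genes between progenitors in the G2M range and in the S range (SE as bars, 4 libraries), with cuts of 25 and 8 UMIs (filled) and of 5 and 2 UMIs (open). All filled circles lie below 0, from -4.25 (Ung) to -0.16 (Gins1), whereas 10 genes were called above 0 with the lower cuts.

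Progenitors in neither range, which by the cuts were low in mitotic and companion genes, were low in the members. With the higher cuts all 49 were higher in the S range than in cells of neither range, against 22.5% of the 11462 genes tested, with a median of 1.67. Mcm10 (2.75 ± 0.111), Cdc6 (2.72 ± 0.104) and Cdc45 (2.55 ± 0.0994) rose most and Gins1 least (0.77 ± 0.0843). With the lower cuts, 47 members were called higher, against 5.48% of the 9536 genes tested, with a median of 2.65. Summed over the members, the level in the lower cuts was 6677 ± 276 CPM in the S range, 5149 ± 130.4 CPM in the G2M range and 1300 ± 129.6 CPM in neither (SD, n = 4).

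The genotype comparison asks whether loss of St18 changes replication genes. In progenitors the members summed to 5516 and 5519 CPM in the null libraries and 5357 and 5277 CPM in the WT libraries. The null libraries were higher by 201 CPM, with an exact two-sided permutation p of 0.333, the smallest that 2 against 2 allows. On the log2 scale this was 0.05, below the all-gene median of 0.18 with the same library totals. It was 92.6 CPM with a UMI threshold per library, 323 CPM with male cells only and 88.2 CPM with doublets kept, where the groups overlapped. In the edgeR fit of progenitors, 0 members passed an adjusted p of 0.05, where 5 of 13450 genes did (0.0372%). At an unadjusted p of 0.05, 9 members passed (8 lower and 1 higher) against 16.1% of genes (9.16% lower and 6.93% higher), and DESeq2 called 1 member and 1.90% of genes. The median over the members was -0.06 and that of all genes was 0.00 to 2 decimals. Without null 1, 27 members were called (25 lower and 2 higher) with 35.5% of all genes (20.9% lower and 14.6% higher). Without null 2, 15 were called (10 lower and 5 higher) with 17.3% of all genes (10.3% lower and 6.97% higher). With library totals in place of TMM, the median of the members moved to 0.12.

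Rpa3 was nearest to the threshold. It stood at 120.1 and 119 CPM in the libraries labelled null and 169.8 and 175 CPM in the WT libraries, which did not overlap (-0.71 ± 0.117, adjusted p = 0.0794 in edgeR). It was the only member called in any class, in radial glia-like cells, where it stood at 110.0 and 117 CPM in the libraries labelled null and 167 and 152 CPM in the WT libraries (-0.69 ± 0.124, adjusted p = 0.0224 in edgeR). In that class 2.02% of 11660 genes were called, and 10 members passed at an unadjusted p of 0.05, against 19.3% of genes. In neurons Rpa3 stood at 43.4 and 44.0 CPM in the libraries labelled null and 56.7 and 81.4 CPM in the WT libraries (-0.80 ± 0.158, adjusted p = 0.0596 in edgeR). Its neuron level lay below that of free RNA in 4 of 4 libraries. Without null 1 or null 2, 24 and 9 members were called in radial glia-like cells, with 28.1% and 13.7% of all genes. Without WT 1 or WT 2, 0 members were called there, with 0.321% and 0.306% of all genes, and the Rpa3 call was lost (adjusted p = 0.353 and 0.197 in edgeR).

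Orc6 and Gmnn were next in progenitors. Orc6 stood at 119 and 117 CPM in the libraries labelled null and 142 and 144 CPM in the WT libraries (-0.46 ± 0.116, adjusted p = 0.154 in edgeR) and Gmnn at 167 and 147 CPM in the libraries labelled null and 184 and 186 CPM in the WT libraries (-0.42 ± 0.137, adjusted p = 0.222 in edgeR). Neither passed, although their libraries did not overlap between the groups. In CPM, 24 members had both null libraries above both WT libraries in progenitors (background 46.5% of genes) and 6 had both below (background 11.6%), which were Rpa3, Lig1, Orc6, Pole2, Gmnn and Rfc4. Both counts are close to the background.

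In basal progenitor-like cells 0 members were called, where 0.0157% of 12748 genes were, and 9 passed at an unadjusted p of 0.05 (13.9% of genes). Rpa3 stood there at 125 and 119 CPM in the libraries labelled null and 171 and 182 CPM in the WT libraries (-0.70 ± 0.125, adjusted p = 0.120 in edgeR). In neurons 0 members were called, where 0.434% of 13606 genes were, and 12 passed at an unadjusted p of 0.05 (10 higher and 2 lower) against 17.3% of genes (7.14% higher and 10.2% lower). DESeq2 called 1 member in each of these classes, with 1.43% of genes in basal progenitor-like cells and 2.26% in neurons. The neuron median over the members was 0.16 against -0.0041 over all genes, and 40 of 49 log2 fold changes were above 0, as were 6726 of the 13606 genes tested. The members summed to 1164 and 1147 CPM in null neurons and 1012 and 1029.7 CPM in WT neurons, a log2 difference of 0.18 beside an all-gene median of 0.14 with the same library totals. In CPM, 37 members had both null libraries above both WT libraries in neurons, 75.5% of them against 42.5% of genes, and 3 (Rpa3, Orc6 and Rfc4) had both below, against 13.6% of genes. Mcm2 stood in neurons at 19.6 and 24.3 CPM in the libraries labelled null and 14.1 and 13.2 CPM in the WT libraries (0.54 ± 0.146, adjusted p = 0.129 in edgeR). None of the 57 further pathway genes was called in any of the 4 classes by edgeR.

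A test of the difference itself asked whether null against WT was the same in progenitors and neurons. In this edgeR interaction fit, 0.693% of 14293 genes were called, 0.546% with a lower value in progenitors, and 11 members were called, all with a lower null against WT difference in progenitors than in neurons. The median interaction was -0.29 over the members and -0.04 over all genes. Of the 57 further pathway genes, 51 were also below 0, with a median of -0.16, and 1 was called. This was Cdca7 (-0.38 ± 0.0725, adjusted p = 5.78e-04 in edgeR). Among the members Rrm2 led, at -0.06 in progenitors and 0.40 in neurons (interaction -0.50 ± 0.0960, adjusted p = 5.78e-04 in edgeR). In progenitors Rrm2 stood at 413 and 365 (null) and 363 and 354 (WT) CPM, and in neurons at 34.2 and 29.7 (null) and 20.7 and 23.2 (WT) CPM. In CPM the null libraries were thus higher in both classes, and the fitted -0.06 rests on TMM scaling. The 4 licensing subunits Mcm2, Mcm4, Mcm6 and Mcm7, with Lig1, Hells, Gins2, Pcna, Gmnn and Cdc45, made up the rest. The neuron side of each rested on levels of 0.143 to 0.459 of the free RNA level, and this ratio was lowest of the 11 for Rrm2.

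The 20 mitotic genes summed to 506 and 549 CPM in null neurons and 405 and 424 CPM in WT neurons, and to 8416 and 8943 CPM against 7585 and 7832 CPM in progenitors. The neuron difference was 0.35 on the log2 scale, beside an all-gene median of 0.14 with the same library totals, and the progenitor difference was 0.17, no larger than the all-gene median of 0.18. Neither was tested. Free RNA carried 3311 and 2975 CPM of the members in the null libraries and 3125 and 2729.9 CPM in the WT libraries, which overlap. The part of these in the member values was not tested. The interaction calls depended on the settings, whereas the values of the 11 stayed below 0 in each of 14 alternatives, from -0.62 to -0.35 for Rrm2, -0.55 to -0.32 for Mcm2 and -0.86 to -0.52 for Cdc45. Leaving out 1 library at a time gave 0 to 4 member calls, with 0 when null 2 was left out, and RLE size factors, library totals and DESeq2 gave 4, 1 and 1 (0.406%, 0.350% and 0.133% of genes). With male cells alone, 0 members passed the interaction test, on fewer cells.

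**Figure D5:**
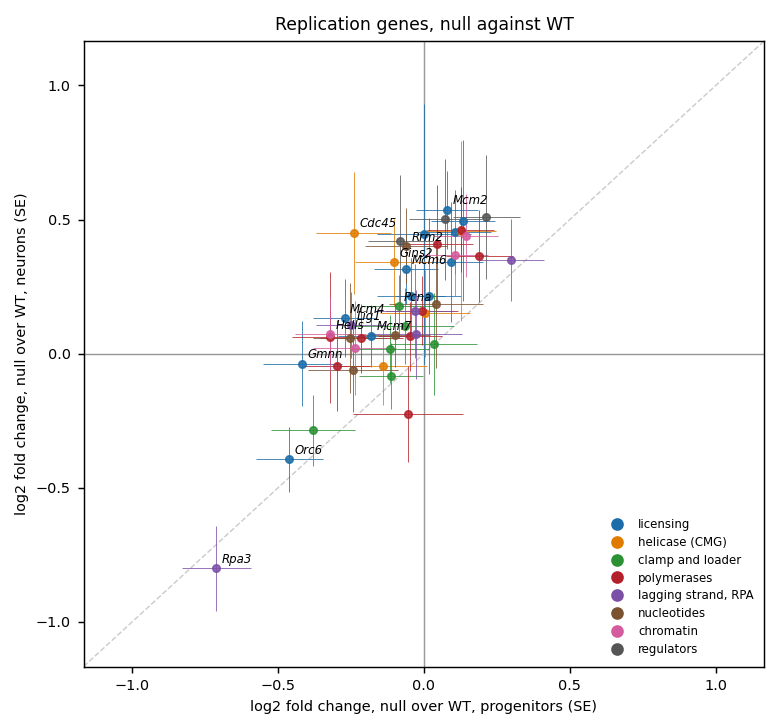
Log2 fold change of each of the 49 genes between null and WT in progenitors (horizontal) and neurons (vertical), with SE as bars and the dashed line marking equal change. Rpa3 lies at -0.71 and -0.80, and 47 of the 49 genes lie above the line, for which no share over all genes is given here. In the interaction fit, 51 of 57 further pathway genes also had a lower difference in progenitors (median -0.16). The all-gene median was -0.04.

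The share of progenitors in the S range was 21.0% and 21.6% in the null libraries and 27.5% and 26.5% in the WT libraries with the lower cuts. The difference was -5.71 percentage points, with an exact two-sided permutation p of 0.333, again the smallest possible. It was -2.96 points with male cells only (20.7% and 24.3% against 26.1% and 24.8%), -3.71 with a UMI threshold per library and -3.44 with clusters made without any cell cycle gene. It was -6.05 with clusters made from all variable genes and -7.57 with cells not thinned (9.34% and 5.84% against 14.6% and 15.8%). With the higher cuts it was -2.49 points, at 40.2% and 40.0% against 43.4% and 41.7%. The G2M share went the other way, at 37.8% and 40.0% in null and 31.9% and 33.9% in WT with the higher cuts. The ranges of thinned cells count UMIs within a fixed total, as CPM does. On the CPM scale the mitotic genes were higher in null progenitors by 0.17 (log2), beside an all-gene median of 0.18. The part of this shift in the S and G2M shares was not tested. Within the cells called progenitors, the share with at least 10 thinned member UMIs was 62.3% and 61.5% in null and 61.8% and 61.5% in WT, which did not separate the groups.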

How the data were processed

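Cells had been captured and sequenced by the submitters with 10x Genomics droplets. Per the file headers, the deposited matrices hold UMI counts per gene and barcode, made by the authors with Cell Ranger, neither normalized nor filtered for cells. The submitters' processing notes name Cell Ranger 5.0.1 and GRCm38, whereas the headers name version 4. Totals were 92984713, 89094919, 72640295 and 70991150 UMIs for null 1, null 2, WT 1 and WT 2, with numbers in order of deposition because the labels carry none. Of the gene identifiers, 99.8% were found in GENCODE M21, which gave positions and overlaps.

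The members and all gene lists were chosen with earlier results of these data known. Cells had at least 3000 UMIs and at most 10% mitochondrial UMIs. Scrublet's own threshold in scanpy 1.11.5 marked at most 0.0887% of the cells of a library and was not used. Cells of top doublet score were removed at a rate of 0.8% per 1000 cells (764 cells of 19032), which left 18268 in all classes. Clusters came from the Leiden method (resolution 1.4, 49 components, 2000 variable genes without members and companion genes). They were named by the highest mean score of fixed markers, with at least 3 detected in 25% of cells. A cluster with a mean score above 0.5 on the 20 mitotic genes was not named neuron, whatever its neuron score. Another 1016 cells in other or unnamed clusters were left out.

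Summed counts of each class and library were tested with edgeR 4.0.16 in R 4.3.3 (filterByExpr, TMM, quasi-likelihood F-test, two-sided, Benjamini-Hochberg over all genes tested, threshold 0.05), with the library as a block between classes of the same library. CPM values in the text use library totals. An error after ± is the SE of a log2 fold change unless SD is written. Single values per library were compared with exact permutation tests, and shares have exact Clopper-Pearson intervals at 95%. In all, 9 comparisons across genes were made. The fits were tested on simulated data with known changes, drawn with the same spread in both groups. The null libraries here varied more than the WT libraries, which the simulation did not cover. Named members were, per comparison, every called one where these were 20 or fewer, otherwise the largest and smallest change of each role, with the 3 smallest unadjusted p for null against WT. Other members are named for their role. Alternatives were other scalings, DESeq2 1.42.0, no filter on low counts, leaving out each library, other cell thresholds, doublets kept, male cells only, thinned cells, other clusterings and other cuts of the ranges. Python 3.11.15 with numpy 2.4.6, pandas 2.3.3, scipy 1.17.1 and matplotlib 3.10.9 was used.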

Additional observations from a re-analysis of the deposited data

Results flagged for a closer look

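The difference between null and WT was not the same in progenitors and neurons for 11 members, by the interaction term of the edgeR fit. All 11 interactions were negative, which means a lower null against WT difference in progenitors. They were -0.50 for Rrm2 (adjusted p = 5.78e-04), -0.39 for Lig1 (adjusted p = 0.00487), -0.49 for Mcm2 (adjusted p = 0.00687) and -0.41 for Mcm6 (adjusted p = 0.0104). Mcm4 was at -0.43 (adjusted p = 0.0166), Hells at -0.43 (adjusted p = 0.0244), Gins2 at -0.47 (adjusted p = 0.0330) and Pcna at -0.30 (adjusted p = 0.0330). The last 3 were -0.41 for Gmnn (adjusted p = 0.0354), -0.72 for Cdc45 (adjusted p = 0.0359) and -0.28 for Mcm7 (adjusted p = 0.0487).

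Within the classes, 10 of the 11 fitted values were below 0 in progenitors, all but that of Mcm2, and 10 were above 0 in neurons, all but that of Gmnn. These signs depend on TMM scaling, since library totals moved the all-gene median in progenitors to 0.18. In CPM of progenitors, Rrm2, Mcm6, Pcna and Mcm2 had both null libraries above both WT libraries. Lig1 and Gmnn had both below, and the rest overlapped. Mcm2 differed by 0.08 in progenitors and 0.54 in neurons, Cdc45 by -0.24 and 0.45, Gins2 by -0.10 and 0.34, and Mcm6 by -0.06 and 0.32. Gmnn differed by -0.42 in progenitors and -0.04 in neurons, Hells by -0.32 and 0.07, and Lig1 by -0.25 and 0.11. Mcm4 differed by -0.27 in progenitors and 0.13 in neurons, Pcna by -0.09 and 0.18, and Mcm7 by -0.18 and 0.07. None of the 11 passed the edgeR test in either class alone. Of 14 alternatives, Rrm2 passed in 10, Gins2 in 6, Lig1 and Mcm2 in 5, Mcm6 in 4, Hells in 3, Gmnn in 2, and Cdc45, Mcm4, Mcm7 and Pcna in 1.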

How the results depend on the processing

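All 49 members stayed higher in progenitors than in neurons under each of 15 alternatives, the fit without the library block (no replicate block) among them. Each alternative kept the rule that clusters high in mitotic genes were not named neurons. No paired analysis was possible for null against WT because the labels carry no replicate numbers. Between basal progenitor-like and radial glia-like cells, the fit without the block called 19 members in place of 38. Over all comparisons, 111 of 149 recomputed summaries stayed within 1.5 times the main count or kept the direction of the main value, and of the values of named members 1143 kept direction and side of the threshold, 159 lost the call, 36 gained it and 11 reversed.

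For null against WT, the edgeR count of called members was 0 in progenitors, where DESeq2 called 1, no filter 2, doublets kept 1 and thinned cells 1. Over all genes, the alternatives that kept all 4 libraries called 1 to 755 in progenitors. Leaving out each library gave 0 to 27 in progenitors (27 without null 1, 15 without null 2, with 35.5% and 17.3% of all genes), 0 to 5 in neurons (5 without null 1, 2 without null 2, with 22.8% and 5.06% of all genes), 0 to 24 in radial glia-like cells (24 without null 1, 9 without null 2, with 28.1% and 13.7%) and 0 to 27 in basal progenitor-like cells (27 without null 1, 13 without null 2, with 33.5% and 15.9%). In these fits the lone library of a group was assumed to vary like the pair of the other group. In neurons the count of 0 became 2 with library totals and 1 with DESeq2, no filter or clusters from all variable genes. Over all genes, the alternatives that kept all 4 libraries called 1 to 423 in neurons. In radial glia-like cells the count of 1 became 5 with library totals and 2 with no filter, beside 159 to 924 of all genes over the same alternatives. In basal progenitor-like cells the count of 0 became 1 with DESeq2 and 2 with no filter, beside 0 to 521 of all genes over the same alternatives. The cause was not tested.

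With the share of all genes called in parentheses, the 11 interaction calls (0.693%) became 4 with RLE size factors (0.406%), 1 with library totals (0.350%), DESeq2 (0.133%) or no filter (0.399%), 6 with a UMI threshold per library (0.845%), 7 with doublets kept (0.897%), 0 with male cells only (0.0526%), 0 with thinned cells (0.142%), 2 with clusters without any cell cycle gene (0.585%) and 7 with clusters from all variable genes (0.714%). Leaving out each library gave 0 to 4 (0.175% to 0.808%).

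Reversed values between basal progenitor-like and radial glia-like cells were -0.20 for Chaf1a, -0.78 for Cdc6 and -0.27 for E2f2 with clusters from all variable genes, and 0.14 for Hells without any cell cycle gene. Between the G2M and S ranges, Chaf1a was at 0.015 with doublets kept, and with the cuts of 25 and 8 UMIs Rfc5 was at -0.37, Cdc45 at -0.98, Rpa3 at -0.37, Gmnn at -0.81, Rrm1 at -0.26 and Pole at -0.77. The other 4 of the 10 members called higher with the lower cuts turned as well, to -0.60 for Rrm2, -0.81 for Tyms, -0.999 for Tk1 and -0.57 for Rfc4.

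Counts over all genes moved more. For null against WT they ran from 1 to 755 in progenitors (main 5), 1 to 423 in neurons (59), 159 to 924 in radial glia-like cells (235) and 0 to 521 in basal progenitor-like cells (2). Leaving out a library gave up to 4890, 3115, 3362 and 4356. Interaction counts ran from 7 to 129 (main 99), G2M against S from 1543 to 6590 (5099) and S against neither from 266 to 5112 (726). The neither range of the lower cuts held few cells, neuron levels lay below free RNA, and 2 libraries a group limit every null against WT value.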

Other observations

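Of the 13 neuron clusters, clusters 17 and 25 held the highest summed member levels, 2134 ± 403 and 2271 ± 613 CPM (SD, n = 4 libraries), against 861 to 1278 CPM in the other 11. Cluster 17, with 240 cells led by Cemip and Zfp503, a marker of the lateral ganglionic eminence, held 2684, 2081, 2058 and 1714 CPM. Cluster 25, with 154 cells led by Snhg11 and Pfkp, held 2583, 2253, 1422 and 2826 CPM. Their mitotic genes summed to 674 and 1433 CPM, and clusters 17 and 25 rested on as few as 16 and 19 cells in the library with their lowest level (WT 2 and WT 1). In an alternative chosen with the design, the neurons were compared without clusters 1, 15, 17 and 18. These held raised markers of other forebrain regions, and cluster 25 stayed in. The alternative left 2581, 1590, 1870 and 1780 neurons of 3286, 2134, 2400 and 2190. In that fit edgeR called 0 of 48 members tested between null and WT. At an unadjusted p under 0.05, 8 members passed (6 higher and 2 lower), where 18.01% of genes passed.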
